A study of Homo sapiens with 16 samples.

Results

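The cytosolic ribosome is built from a large (60S) and a small (40S) subunit, each made of ribosomal RNA and a fixed set of proteins, nearly all of which are encoded by single nuclear genes. Those genes are named RPL, RPLP or RPS, and rows of the deposited table whose first name carried such a stem, or was RPSA, were taken as members. RPS6K kinases and RPS27L were left out. This gave 111 members among 27043 gene rows, of which 13641 had a count. Of the members, 76 were standard ribosomal protein genes, 10 were paralogs (expressed relatives of a standard gene), 21 were pseudogenes, 2 were readthrough genes (RPL17-C18ORF32 and RPS10-NUDT3), and 2 shared only the name stem (RPS19BP1 and RPL2B).

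The data are MARS-seq counts, a method that reads the 3' ends of polyadenylated RNA from single cells in plate wells. The cells were untreated SK-N-AS, an established human neuroblastoma line cultured in RPMI1640 with serum, and the labels give no other genotype or treatment. The labels list 16 samples of this 1 kind, but the 603 cell columns carry barcodes that show no sample, so all cells were treated as 1 pooled sample, with no test and no p-value. Of the 8 genes listed for a neuroblastoma line with mesenchymal features, all had counts. VIM was highest at 5649 CPM (counts scaled to a fixed library total), and HAND2 stood at 273 CPM. The Schwann precursor genes SOX10 and S100B were at 0. Of the immune genes, CD68 stood at 54.6 CPM, PTPRC at 18.9 CPM, and CD3E and CD79A at 0.

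The table held 1537576 counts. The shallowest cell had 1000 of them, the median cell 2106 and the deepest 42404. The columns form a first set of 316 cells and a second set of 287 that share 239 barcodes in an identical order, called barcode set 1 and set 2 below. The deepest cell, in set 2, stood apart from the rest. Results that moved without it are given with both values, except by set or block, where it was not left out. All intervals are at 95%. They reflect only the error of counting and leave out how far cells, plates or cultures differ, except the interval of the coefficient of variation, which is over cells taken as independent. In pooled counts, fewer cells with a transcript and fewer copies per cell cannot be told apart without the values per cell.

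Ribosomal protein transcripts are known for a shared 5' end: most start with an unbroken run of pyrimidines, the TOP motif, through which nutrient and growth signals set their translation together. Ribosomes are among the largest investments of a growing cell, and neuroblastoma cells with high MYC activity are known for high ribosome production. Start windows from RefSeq (GRCh38.p14) were found for 62 of the standard genes. An unbroken run of at least 8 C or T bases on the gene's own strand, beginning within 10 bases of the start or covering it, was present in 71.4% of their windows (55 windows), against 10.9% of the 35116 windows of all genes. Counted by gene, 53 of the 62 had such a run in at least 1 start, or 85.5%, against 13.3% of all genes. The windows below reach from 10 bases before to 20 after the start, with capitals for the longest C/T run that begins within 10 bases of the start or covers it. They show the most abundant gene and a stalk gene, 2 genes with few or no counts that have the run, and 4 genes that varied between cells. Of these 4, RPS29 and RPS4X lack the run at the annotated start used. RPL34 and RPS24 also varied between cells, are not shown, and have runs of up to 18 and 16 bases.
RPL37A (chr2:216498834-216498863, plus strand): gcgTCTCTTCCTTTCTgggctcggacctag
RPLP2 (chr11:809957-809986, plus strand): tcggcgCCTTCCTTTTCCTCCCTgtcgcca
RPL39 (chrX:119791611-119791640, minus strand): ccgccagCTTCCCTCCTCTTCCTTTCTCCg
RPS27 (chr1:153990752-153990781, plus strand): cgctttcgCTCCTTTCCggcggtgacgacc
RPL26 (chr17:8383174-8383203, minus strand): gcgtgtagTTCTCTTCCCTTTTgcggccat
RPL35A (chr3:197950180-197950209, plus strand): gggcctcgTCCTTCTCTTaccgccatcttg
RPS29 (chr14:49598691-49598720, minus strand): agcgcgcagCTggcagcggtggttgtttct
RPS4X (chrX:72277229-72277258, minus strand): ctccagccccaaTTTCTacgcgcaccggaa

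Members took 259346 counts, 16.9% of all (16.8 to 16.9), and the standard genes gave 98.7% of them. Set 1 had a share of 16.8% and set 2 of 17.0%. Members made up 5 of the 10 most abundant rows and 30 of the top 50. The levels of the standard genes were far from equal, although their proteins enter the ribosome in equal numbers, apart from the stalk proteins. Of the 76, 51 stood at or above 1000 CPM, 12 lay between 100 and 1000 CPM, and 13 were below 100 CPM. These CPM values are not divided by transcript length, since a 3' method counts one end of each molecule.

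Transcripts for the proteins of the stalk, which recruits elongation factors to the ribosome, were among the most abundant. RPLP1 stood at 7285 CPM (7151 to 7421) and RPLP2 at 5162 CPM (5049 to 5277), while RPL12 and RPLP0, which form the base of the stalk, were at 2068 and 1759 CPM. RPL11 and RPL5 carry the 5S RNA into the 60S subunit and bind MDM2 when free. Their levels differed, at 5660 CPM for RPL11 and 1284 CPM for RPL5. At the rim of the tunnel where the new chain leaves, RPL19 was highest at 4667 CPM and RPL31 followed at 3470 CPM, whereas RPL26 was at 403 CPM, RPL17 at 7.15 CPM and RPL39 at 0. Among the genes of the remaining 60S proteins, RPL37A at 7724 CPM (7586 to 7864), RPL38 at 7453 CPM, RPL27 at 6316 CPM and RPL37 at 5194 CPM led. The level of RPL37A was 7562 CPM in set 1 and 7893 CPM in set 2.

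In the 40S subunit the levels reached less high. RPS21 led the body and platform at 4963 CPM, followed by RPS14 at 4492 CPM. RPS16 led the head, the part that moves during translocation, at 4528 CPM. RPS6, the classical substrate of the S6 kinases, was at 1883 CPM, and RPSA, also known as the laminin receptor, at 1014 CPM. The 46 large-subunit genes had a median of 1569 CPM and the 30 small-subunit genes of 2111 CPM. Over all members, large-subunit rows held 1.65 counts for each count of a small-subunit row (1.64 to 1.67).

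**Figure D1:**
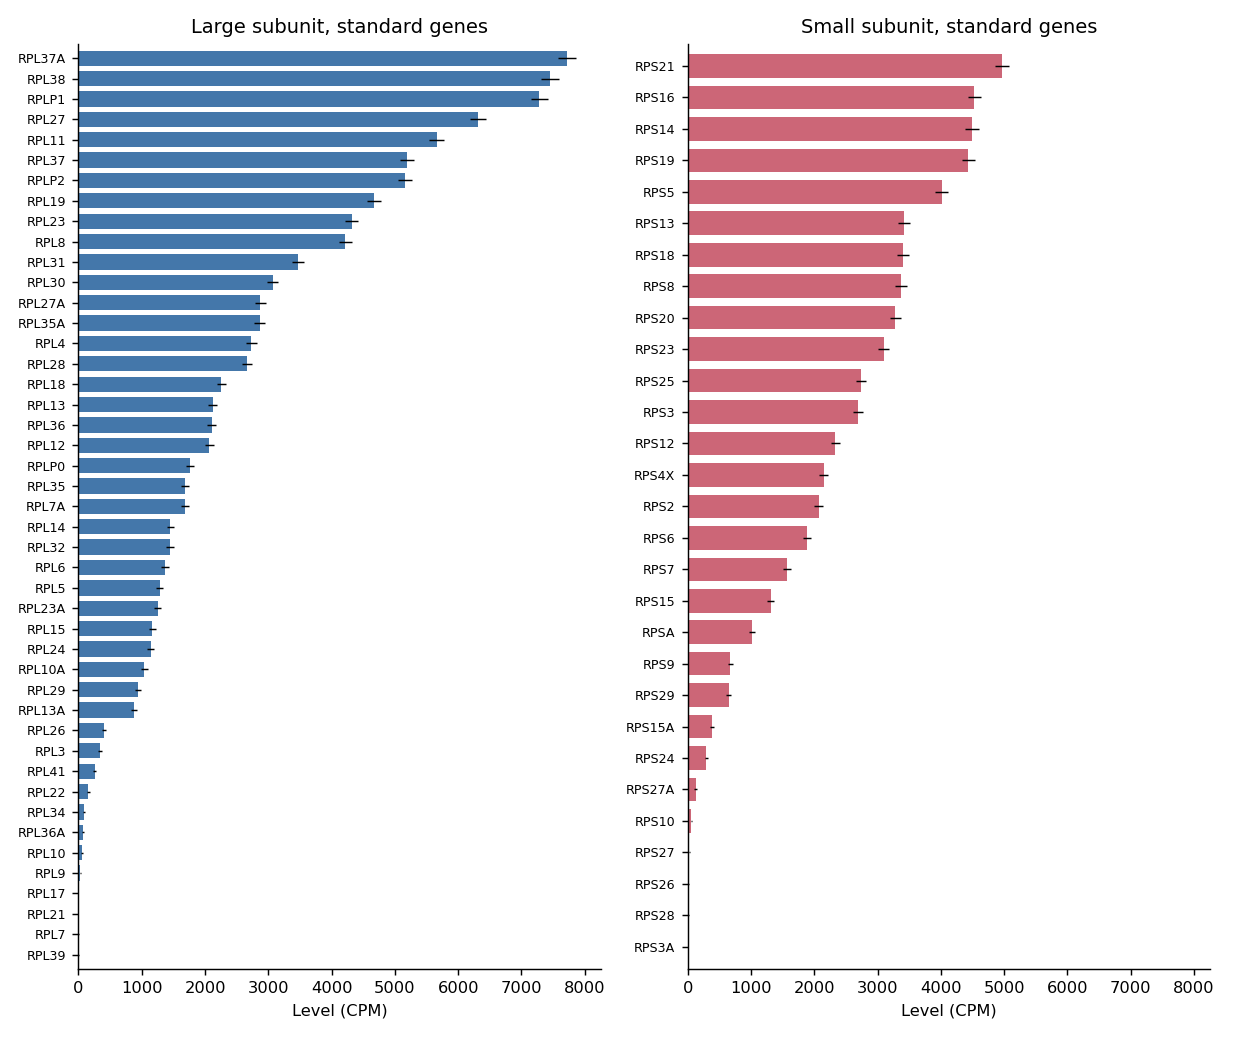
Level of the standard ribosomal protein genes shown, in CPM over 603 pooled cells, large subunit on the left and small subunit on the right, with black lines for 95% Poisson intervals. RPL37A is highest at 7724 CPM, and the genes at the bottom of both panels lie below 100 CPM, of which RPL7 and RPL39 are at 0.

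The 10 standard genes with the lowest levels were RPL7, RPL39, RPS3A, RPL17, RPL21, RPS28, RPS26, RPS27, RPL9 and RPL10. RPL7 and RPL39 had 0 counts in 603 cells, for which the floor of 3 counts used here is 1.95 CPM or 0.498% of cells, and the upper end of the exact 95% interval is 2.40 CPM or 0.610% of cells. RPS3A had 7 counts, RPL17 and RPL21 had 11 each, RPS28 had 15, RPS26 had 19, RPS27 had 44, RPL9 had 45 and RPL10 had 80. RPS10, RPL36A and RPL34 were the other 3 below 100 CPM. The rows of RPS3A and RPL10 are joint rows that also name a small RNA. Other members at 0 included the paralogs RPS4Y1 and RPS4Y2 and the pseudogenes RPL13AP17, RPL21P44, RPL23AP64 and RPS7P5.

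Most genes at the bottom of this order have transcript ends that also occur in other annotated genes. For each standard gene, 50-base stretches of the last 300 transcript bases in GENCODE release 29 were looked up in the transcripts of all other genes. A single protein-coding transcript was taken per gene, and whether the reads came from its end was not tested. A median of 75.3% of stretches recurred in another gene among the 13 genes below 100 CPM, and 12 of those 13 shared at least 30%. The exception was RPS28, with 0% in a transcript of 1324 bases. Transcripts taken for RPL37 (7683 bases), RPL27A (4915), RPL37A (3646) and RPL23A (1561) also shared 0%. RPS23 (3437 bases) shared 15.5%. In the 23 genes at or above 3000 CPM the median was 3.59%, and 3 genes shared at least 30%. The middle classes had medians of 45.0% (12 genes from 100 to 1000 CPM) and 46.6% (28 genes from 1000 to 3000 CPM). RPL9 shared 96.0% of its stretches, RPL17 95.2%, RPL21 87.3% and RPL7 73.3%. RPL6 shared 90.04% and still stood at 1366 CPM, and RPL22 shared 0% and stood at 155 CPM. Across the 76 genes, Spearman's rho between level and shared end was -0.63, and between level and the number of pseudogenes named after the gene -0.57. It was 0.12 for the GC content of the end and 0.080 for transcript length. These are descriptions across genes, which come from 1 pool of libraries and are not independent. The sources used here do not say how reads that match several genes were counted, so for genes with shared ends a low level and lost reads cannot be told apart.

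**Figure D2:**
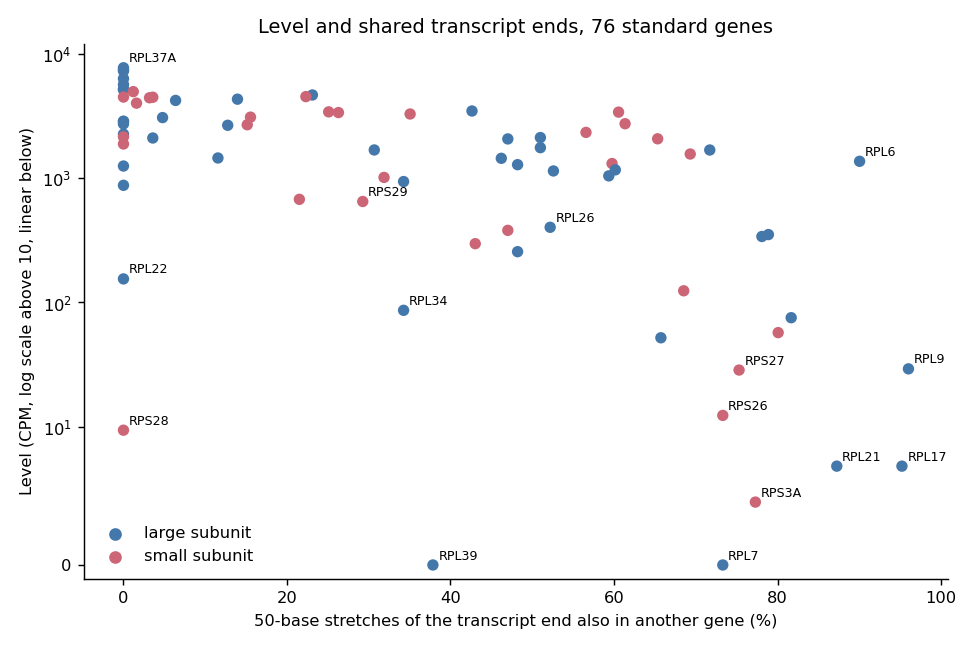
Level of 76 standard genes (vertical, CPM, log scale above 10) against the share of 50-base stretches in their last 300 transcript bases that also occur in another annotated gene (horizontal, percent), with the large subunit in blue and the small subunit in red. Of the 13 genes below 100 CPM, 12 share at least 30%, with a median of 75.3% over the 13, and RPS28 shares 0%. The ends are those of a single transcript per gene.

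Several paralogs had more counts than the standard gene they resemble. RPL22L1 stood at 310 CPM (283 to 339) and RPL22, a protein largely dispensable for general translation, at 155 CPM (136 to 176). RPL36AL was at 603 CPM and RPL36A at 75.4 CPM. RPL39L, known from male germ cells and tumours, was at 45.5 CPM beside RPL39 at 0, and RPL7L1 was at 55.9 CPM beside RPL7 at 0. RPL26L1 went the other way, at 231 CPM beside 403 CPM for RPL26. RPL10L had 4 counts and RPL3L had 1. Because RPL36A, RPL39 and RPL7 share 81.7%, 37.8% and 73.3% of their transcript ends with other genes, these orders are uncertain. The transcript taken for RPL22 shares none. The 21 pseudogenes together held 842 counts, 0.325% of the member counts, and 485 of these were from RPLP0P2.

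To set cells side by side, each was thinned at random to 1100 counts, which kept 560 cells and left out 43 shallower ones. At that depth a cell held between 102 and 270 counts of members, with a median of 188 and quartiles of 169.75 and 206. The SD over cells was 29.1 counts, a coefficient of variation of 15.4% (14.6 to 16.4). Sampling alone would give an SD of 12.5, so the variance was 5.41 times that of sampling. Pearson's r between the summed count and the log2 total of the cell before thinning was -0.17 over the 560 cells.

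Correlations between pairs of members from cell to cell were mostly low. Counting error lowers r between genes with few counts, so these values do not show how far the family as a whole varied together. With the summed members, leaving out the gene itself, the median r was 0.167 over members and -0.00071 over other genes. Among the 56 members with a mean of at least 0.5 thinned counts, the median r over 1540 pairs was 0.035, and 27 pairs (1.75%) had r of at least 0.2. Among 284 other genes with at least that mean the median was -0.00034, and 74 of 40186 pairs (0.184%) reached 0.2. The groups share only this lower limit and were not matched for abundance. All pairs share the same cells, depth and libraries. The 3 highest pairs were RPL35A with RPS4X (r = 0.43), RPS29 with RPS4X (0.36) and RPL35A with RPS29 (0.34). A wider group with r above 0.2 among many of its pairs held RPL31, RPL23, RPL37, RPL38, RPS23, RPL32 and RPS13, for example RPL23 with RPL31 at 0.28. Of the 10 lowest pairs, 9 joined RPS7 or RPL8 with another member, as RPS23 with RPS7 (-0.13) and RPL35A with RPL8 (-0.11), and the other was RPS29 with RPS3 (-0.11).

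The other genes closest to the summed members over the 560 cells included GNB2L1 (r = 0.25), which encodes the 40S scaffold RACK1. The 10 highest included, in descending order, COX7C (0.26), GNB2L1, UQCRH, ATP5E, ATP5EP2, CALM2, FTH1, NDUFA4 and NDUFA1 (0.14). COX7C, UQCRH, ATP5E, NDUFA4 and NDUFA1 are nuclear genes of the mitochondrial respiratory chain or ATP synthase. FAU, which encodes a ubiquitin-like protein fused to a 40S protein, stood at 1573 CPM, TPT1, a growth-related translation-associated protein, at 1979 CPM and GNB2L1 at 4550.0 CPM.

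**Figure D3:**
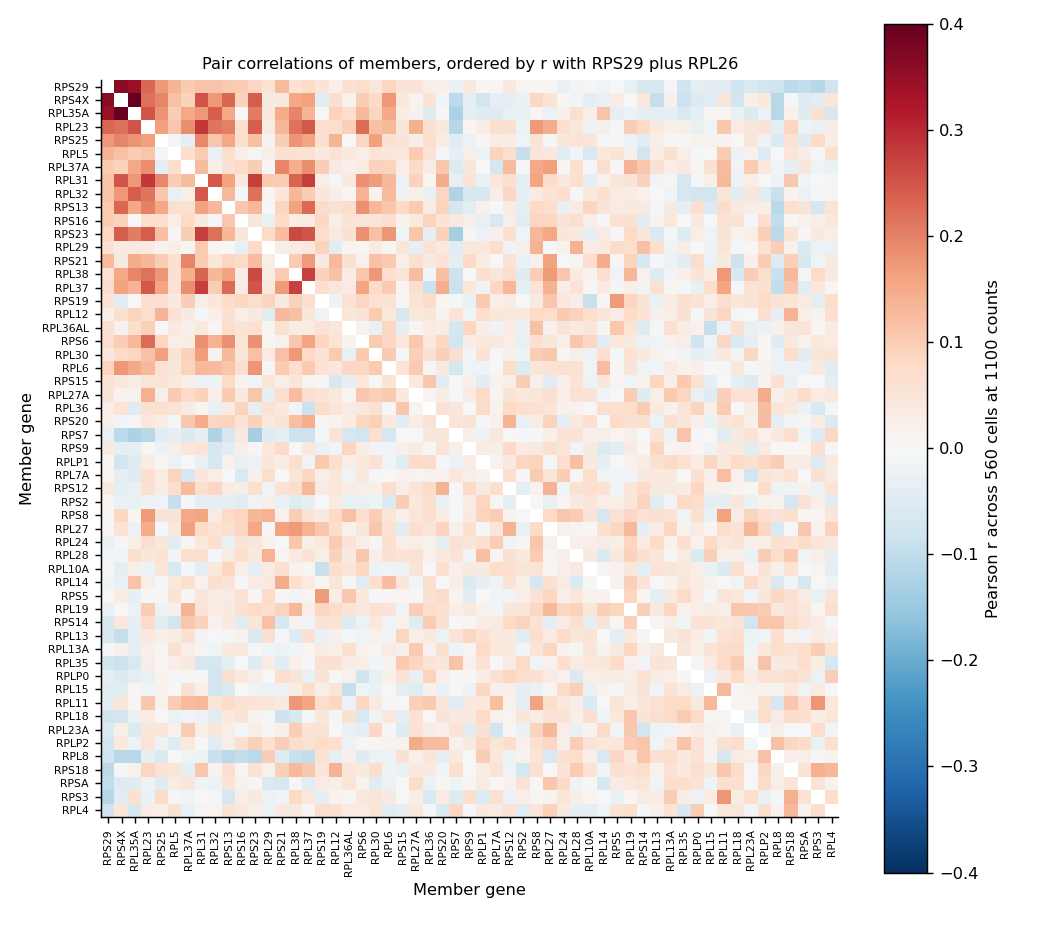
Pearson's r between pairs of members with a mean of at least 0.5 thinned counts over 560 cells thinned to 1100 counts, from blue (negative) to red (positive), with members ordered by their r with RPS29 plus RPL26 (RPL26 itself was below the abundance limit). The highest values sit at the top left, where RPL35A and RPS4X reach 0.43.

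RPS29, a zinc-binding protein of the 40S head, and RPL26, at the tunnel exit, were uneven between cells. RPS29 had 649 CPM (609 to 691), with 832 CPM in set 1 and 458 CPM in set 2, and was counted in 39.1% of cells. RPS9, with a like level of 676 CPM, was counted in 75.3% of cells. RPL26 was at 445 CPM in set 1 and 358 CPM in set 2 and was counted in 34.8% of cells, against 51.4% for RPL3 at 339 CPM. RPS9 and RPL3 were chosen for their levels after these were seen. The Fano factor, variance over mean at equal depth, was 2.46 for RPS29 and 2.33 for RPL26. The medians were 1.19 over members and 1.15 over other genes with a mean of at least 0.5, without matching for abundance. RPL35A had the highest value of the members, 3.24, followed by RPL34 with 2.70, and RPS24 had 2.17.

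RPS29 and RPL26 varied together over the cells, with r = 0.48. Their summed thinned count was 0 in 334 of 560 cells and 1 in 88, and reached 14. Of 55 other members, 10 (18.2%) had r of at least 0.1 with the sum, against 17 of 284 other genes (5.99%). The members and the other genes were not matched for abundance. RPS4X was highest at 0.37, then RPL35A at 0.33, RPL23 at 0.20, RPS25 at 0.16, RPL5 at 0.14, RPL37A at 0.13, RPL31 at 0.11 and RPL32 at 0.11. The lowest were RPL4 at -0.12, RPS3 at -0.089, RPSA at -0.081, RPS18 at -0.074, RPL8 at -0.072, RPLP2 at -0.071, RPL23A at -0.066 and RPL18 at -0.062. The median over members was 0.012, so most of the family was near 0. Genes outside the family had values as high: ACTB 0.54, NDUFA4 0.45, CALM2 0.45, ATP5B 0.33, MTRNR2L1 0.28, LOC100507246 0.27, MAP1B 0.26, ACTG1 0.23, SLC25A5 0.19 and NDUFA1 0.15. They include cytoskeletal, calcium-signalling and mitochondrial genes.

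Cells with at least 1 thinned count of RPS29 or RPL26 (226 cells) were then set against cells with none (334), with full counts summed in each group and ratios of CPM taken as log2. The pair itself differed by construction, at 2333 against 124 CPM. The other members together took 17.1% of counts in rich cells and 16.4% in poor cells, a log2 ratio of 0.057 (0.045 to 0.068), or 0.041 without the deepest cell. Of 65 other members with at least 200 counts, 5 were higher in rich cells by a log2 ratio of 0.5 or more, and 4.27% of the 1405 rows tested were. None was lower by that much, where 2.78% of rows were. The 5 were RPL22L1 at 1.86 (533 against 147 CPM), RPS24 at 1.84 (515 against 144 CPM), RPL35A at 0.99 (4040 against 2028 CPM), RPS4X at 0.88 (2929 against 1595 CPM) and RPS15A at 0.77 (498 against 292 CPM). RPL5 followed at 0.41. The lowest were RPS9 at -0.37, RPL3 at -0.29, RPL17-C18ORF32 at -0.16, RPS18 at -0.15, RPL8 at -0.14 and RPLP0 at -0.11. The median of the members was -0.0067, against -0.050 over all rows tested. Median totals were 2345.5 counts in rich and 2103.5 in poor cells.

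A few translation genes outside the family passed the same limit, beside 4.27% of all rows that were higher and 2.78% that were lower. Of 18 translation partners tested of 23, 2 were higher, NPM1, which encodes a nucleolar chaperone, at 1.94 and PABPC1, the poly(A)-binding protein, at 0.66. Of 19 initiation factors, EIF2S3 was higher at 0.53 and EIF4G1 lower at -0.52. Of 15 ribosome biogenesis genes, NOP10, a protein of the pseudouridylation particle, was higher at 0.86. The medians of the 3 lists were -0.063, -0.031 and -0.082.

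The level of RPS29 plus RPL26 followed the order of the barcodes. The order shared by both sets, 364 barcodes in all, was divided into 4 equal blocks because the labels describe 384-well plates, and each block into an early, a middle and a late part of equal length. The division uses no gene value, but it was made after the pattern had been seen, and the sources used here do not say what the blocks correspond to. RPS29 plus RPL26 stood at 607 CPM in the 207 early cells, 735 CPM in the 197 middle cells and 1732 CPM in the 199 late cells. The late to early log2 ratio was 1.51 (1.33 to 1.70). Set 1 gave 2.55 and set 2 gave 0.52. In each of the 8 combinations of set and block the late cells were higher, from 0.20 (-0.26 to 0.68) in block 4 of set 2 to 3.71 in block 1 of set 1. The interval reached below 0 only in the former, whose late cells include the deepest cell. Median totals were alike, at 2206 counts in late and 2114 in early cells.

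In finer bins of 13 barcodes, which held 7 to 13 cells of a set, the level in set 1 went from 113 CPM in bin 2 to 3264 CPM in bin 6, and it was higher in the last bin than in the first of every block. In set 2 it ran from 82.4 CPM in bin 18 to 2860 CPM in bin 21. The other members took between 14.4% and 18.5% of the counts in every bin. The lowest share was that of bin 27 of set 2, which holds the deepest cell. In windows of 25 consecutive columns of the table, the pair ranged from 105 to 2574 CPM, 24.4-fold. With windows of 40 columns this was 8.20-fold. The lowest and highest windows were chosen by this value. Over the 207 barcodes with a deep enough cell in both sets, r between the cells of the same barcode was 0.22 for the pair, 0.15 for the sum of the other members and 0.29 for NDUFA4, the highest of the genes compared. It was 0.13 for ACTB and 0.054 for CALM2, with medians of 0.018 over members and 0.015 over other genes.

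**Figure D4:**
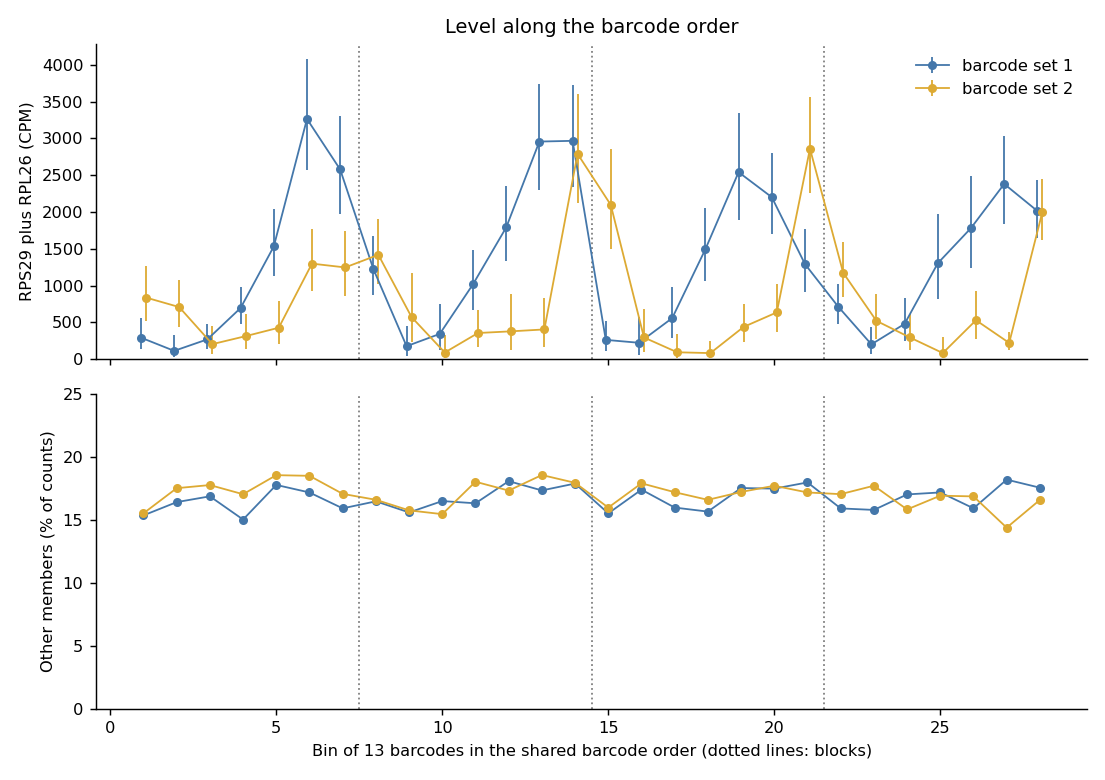
RPS29 plus RPL26 in CPM with 95% Poisson intervals (top) and the other members as percent of counts (bottom) in 28 bins along the shared barcode order, for both barcode sets, with dotted lines between blocks. In set 1 the pair is higher at the end than at the start of each block and reaches 3264 CPM in bin 6. Over both sets the other members lie between 14.4% and 18.5%.

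Other members followed the barcode order as well. Of 67 members tested, 8 were higher in late cells by a log2 ratio of 0.5 or more, where 4.12% of the 1407 rows tested were, and none was lower by that much, where 2.13% were. RPS29 at 1.62 and RPL26 at 1.35 are among the 8, although their pattern had been seen before the division was made. The others were RPL22L1 at 1.23, RPL35A at 0.91, RPS4X at 0.87, RPS24 at 0.70, RPL32 at 0.64 and RPL22 at 0.51. RPL35A stood at 3902 CPM late and 2072 CPM early, and its ratio was 0.99 in set 1 and 0.87 in set 2. RPS4X stood at 2801 CPM late and 1537 CPM early, with ratios of 1.03 and 0.70. RPS29 differed more between the sets, with 2.85 and 0.44. The lowest members were RPS9 at -0.33, RPL15 at -0.23, RPSA at -0.19, RPLP0 at -0.18, RPS2 at -0.17 and RPL26L1 at -0.15. Of the 67 members 36 were above 0, against 42.0% of 1340 other genes. Shared transcript ends were looked up for standard genes only, which leaves out RPL22L1. They varied among the rest of the 8, with none for RPL35A, RPS4X and RPL22 and 52.2% for RPL26. The transcripts taken for RPS4X and RPL22 were long, at 1523 and 2077 bases, and whether reads came from these ends was not tested. Pseudogenes named after RPL35A, RPS4X, RPL22 and RPL26 numbered 17, 23, 22 and 14, so reads with several matches may concern these genes too.

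The same division also separated genes outside the family. PRDX1, an antioxidant enzyme, had a late to early log2 ratio of 1.499, NDUFA4 of 1.47, PTTG1, the securin of mitosis, of 1.37 and PPIA, a cyclophilin, of 1.24. PTTG1 was at 2.22 in set 1 and 0.083 in set 2. APH1A, a gamma-secretase subunit, was lower in late cells at -1.34 and SUMO3, a ubiquitin-like modifier, at -1.03. NPM1, PABPC1 and NOP10 stood at 0.69, 0.64 and 0.70. By set, NPM1 was at 1.66 and -0.13, PABPC1 at 0.98 and 0.32, and NOP10 at 1.04 and 0.33. Late cells made up 47.3% of the cells rich in RPS29 and RPL26 and 22.5% of the poor ones. What part the position has in the cell-to-cell correlations was not tested. Since the deposited columns name no sample, well or plate, a difference between cells in biological state and one that arose during handling cannot be told apart.

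A second uneven pattern rested on few cells. The genes RPL34, RPS24, RPS27A, which encodes ubiquitin fused to a 40S protein, and RPS15A were picked after their values were seen, because a few cells held much of their counts. The 10 cells with the highest sum of these 4 genes had 2.93% of all counts. They held 56.4% of the counts of RPL34, 31.3% of RPS24, 30.9% of RPS27A and 21.9% of RPS15A, but 2.84% of those of the members other than RPS29 and RPL26, the 4 included. RPL34 stood at 1664 CPM in them and 38.9 CPM elsewhere. The sum of the 4 ran from 7275 to 16755 CPM in the 10 cells and was 644 CPM over all others. The next cell stood at 7157 CPM, so 10 is an arbitrary number and no gap separates them. Set 1 held 4 and set 2 held 6, and 6 were late and 4 early. All members together took 16.6% of the counts in these cells, close to the pooled share. Without these 10 cells the ratio between cells rich and poor in RPS29 and RPL26 was 1.11 for RPS24 and 0.21 for RPS15A, and the late to early ratio of RPS24 was 0.37.

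Cells rich in G2/M transcripts held a smaller share of ribosomal protein counts than cells poor in them. Each cell was scored by its thinned count over 56 G2/M genes such as TUBB4B, HMGB2 and BIRC5. The score is a plain sum, so a few abundant genes weigh most. Over all cells HMGB2 had 2236 counts and TUBB4B 1617, against 111 for CDK1 and 55 for TOP2A. The 210 cells with at least 11 counts, the upper part of the cells, were set against the 192 with at most 5. Members took 16.3% of counts (16.2 to 16.4) in rich and 17.8% (17.7 to 17.9) in poor cells, a log2 ratio of -0.12 (-0.14 to -0.11). At equal depth the median member count was 182 (quartiles 164 and 202.75) in rich and 196 (179.75 and 219.25) in poor cells, so the groups overlapped widely. Over the 560 cells r between the G2/M count and the member count was -0.29. Both are counted out of the same fixed total. With G2/M, G1/S and histone genes taken out of the denominator the ratio was -0.10. Set 1 gave -0.11 and set 2 gave -0.14, and the ratio was -0.14, -0.16 and -0.083 among early, middle and late cells. Median totals were 2473 counts in rich and 2075.5 in poor cells.

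The shift was small and spread over many members. No member of 67 passed a log2 ratio of 0.5 in either direction, where 7.64% of 1388 rows were higher and 4.54% lower by that much. Yet 11 of the 67 members had a ratio above 0, against 675 of 1321 other genes (51.1%). The median member was at -0.12 and the median row tested at -0.0057. Among the lowest were RPL13A at -0.41 (789 against 1049 CPM), RPL29 at -0.35 and RPL28 at -0.27, each lower in both sets. RPL17-C18ORF32 had -0.25 with an interval across 0. RPS24 at -0.42 and RPS15A at -0.39 were low in set 2 only, with 0.53 and 0.056 in set 1. Among the highest were RPL26 at 0.27, RPS29 at 0.24, RPL22L1 at 0.098, RPL23A at 0.082 and RPL35 at 0.026. RPL26 was at 0.63 in set 1 and -0.24 in set 2. Of these only RPS29 had an interval above 0. It was at 0.32 in set 1 and 0.053 in set 2, and with another random thinning it was at -0.093.

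G1/S transcripts, such as those of TYMS, MCM7, PCNA and NASP, gave a smaller difference. Their score had a median of 3 thinned counts and a maximum of 13, against 8 and 36 for G2/M. The G1/S groups are thus less well separated, and the sizes of the differences cannot be compared directly. Members took 16.3% of counts in the 240 cells with at least 4 thinned counts over 47 G1/S genes and 17.2% in the 231 cells with at most 2, a log2 ratio of -0.076 (-0.088 to -0.063). Set 1 gave -0.073 and set 2 gave -0.083, and without the deepest cell the ratio was -0.063. The equal-depth medians were 185.5 and 190, and r was -0.13. When cells of the late part of the barcode blocks were thinned and divided on their own, the ratio turned to 0.031 (0.011 to 0.051). With the division made over all cells it was -0.051 in early, -0.094 in middle and -0.071 (-0.091 to -0.050) in late cells. Median totals were 2171 and 2212 counts. Of 67 members 20 were above 0, against 51.2% of 1331 other genes. RPL26 alone passed 0.5, at 0.82, where 3.29% of 1398 rows did, and no member was lower by that much, where 1.93% were. The value of RPL26 was not stable: it was 0.12 with another random thinning and 0.0014 at a depth of 1500. The other named members lay between RPS15A at 0.23 and RPL35A at -0.32, with RPS24 at 0.12, RPS7 at 0.12, RPL10A at 0.12, RPL13 at 0.10, RPL31 at -0.26, RPL17-C18ORF32 at -0.27, RPL22 at -0.26, RPL13A at -0.24 and RPL27A at -0.22. RPS15A was at 0.59 in set 1 and -0.15 in set 2, and RPS24 at 0.80 and -0.44.

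**Figure D5:**
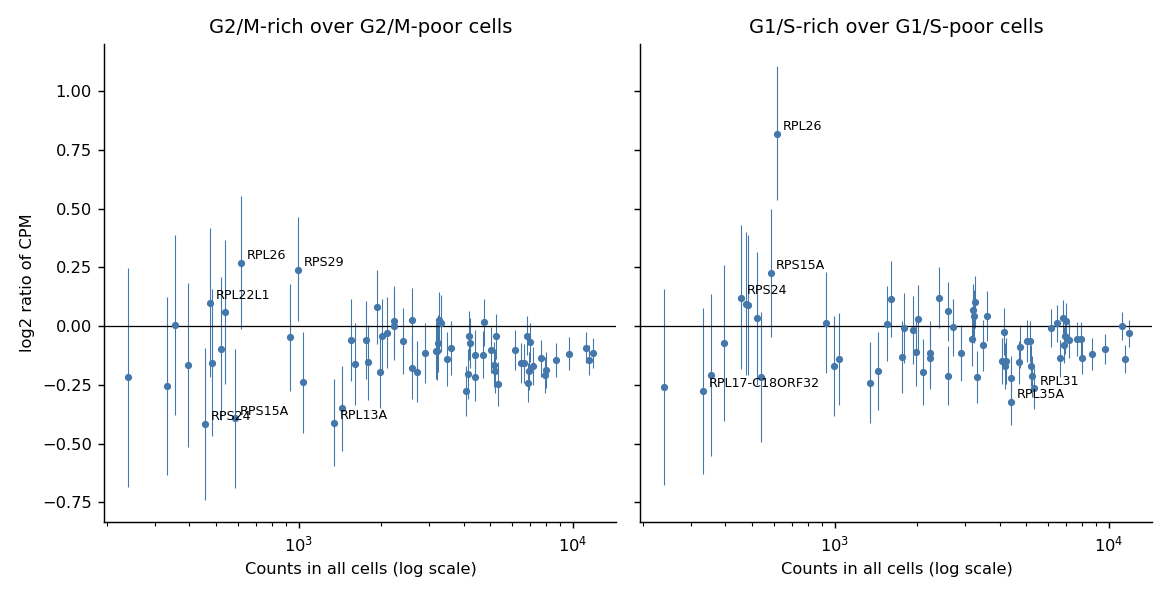
The log2 ratio of CPM between cells rich and poor in G2/M transcripts (left) and in G1/S transcripts (right) for 67 members with at least 200 counts, against their counts (log scale), with 95% intervals. On the left 11 points lie above 0 and none passes 0.5 in size. On the right 20 lie above 0, and RPL26 at 0.82 stands apart.

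Genes whose products assemble ribosomes gave mixed ratios. The 15 tested of 41 ribosome biogenesis genes had a median log2 ratio of 0.13 between G2/M-rich and G2/M-poor cells and 0.22 for G1/S. Of the 15, 5 were below 0 for G2/M, from NHP2 at -0.12 to NOP10 at -0.0052, and POLR1D at -0.27 and NOP16 at -0.048 were below 0 for G1/S. The difference between these medians and those of the ribosomal protein genes was not tested. NCL, which encodes nucleolin, was at 0.42 and 0.26, and EBNA1BP2, a 60S assembly factor, at 0.42 and 0.36. FBL, the methyltransferase of box C/D particles, was at 0.083 and 0.22. DDX21 at 0.52 and MRTO4 at 0.56 passed 0.5 in the G2/M comparison, where 7.64% of rows were higher by that much. The 18 translation partners tested had medians of -0.10 in both comparisons, with EEF1G, an elongation factor subunit, at -0.35 and TPT1 at -0.38 for G2/M, and 1 of them, IMPDH2, a purine synthesis enzyme, passed 0.5 for G2/M at 0.66, beside the same share of rows. The 19 initiation factors had medians of 0.062 and 0.086. EIF1 was at 0.12 and 0.069, EIF3I at 0.062 and -0.0048, EIF3K at -0.21 and 0.038 and EIF3B at 0.15 and -0.086.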

How the data were processed

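The deposited table holds whole-number counts per gene and cell. Per the submitters' processing notes the aligner was Bowtie2 2.1.0 and the genome hg19. The sources used here do not give the counter, the annotation, the filter applied to cells, or the handling of molecular identifiers and of reads with several matches. A row named unknown (2 counts) was left out. All columns were pooled as 1 sample, so no test was run. The members and gene lists were chosen with earlier results of these data known.

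CPM came from summed counts with exact Poisson intervals, and log2 ratios of CPM carry exact conditional binomial intervals, computed with Python 3.11.15, numpy 2.4.6 and scipy 1.17.1. Cells were thinned without replacement to 1100 counts. Cell groups are the upper and lower of 3 parts by score, with ties kept together, and a scored gene was left out of its own comparison. For RPS29 plus RPL26 the bounds fell at 1 and 0 counts, so the groups took in all 560 cells with no middle part. No doublet caller was run on the sorted cells. Ratios used rows with at least 200 counts and a limit of 0.5. The ratio and correlation scripts were tested on simulated data. Transcript ends came from GENCODE release 29, for sequence only, and starts from RefSeq GRCh38.p14.

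The text names the 12 highest and 10 lowest standard members, members at 0, paralogs with their partners, and the highest and lowest 8 by correlation with RPS29 plus RPL26 and 6 by ratio. It also names the 10 other genes closest by each correlation and the 4 most abundant of each pathway list. Others were chosen after their values were seen. Some genes under this rule are not reported here and are absent from plots with gene names, while counts and medians include them.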

Additional observations from a re-analysis of the deposited data

How the results depend on the processing

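Of 80 alternative values of the 10 main results, 44 stayed within the counting interval of the value above or, for the number of members at 1000 CPM, within 1.5 times it. The spread over cells stayed within its interval in every alternative tried. The 44 also count all values of both median correlations, whose interval is that of a single r and too wide to judge a median. The median over pairs ran from 0.030 to 0.043. The median r with RPS29 plus RPL26 ran from -0.036 in set 2 to 0.029 in set 1 and was below 0 in 4 alternatives. The member share was 16.8% in set 1, 17.0% in set 2, 17.0% without the deepest cell, 16.7% in cells of at least 1500 counts, 16.2% without joint rows, 16.7% for standard genes and 17.2% as the mean over cells. The large to small ratio was 1.64 without joint rows and 1.62 for standard genes, and windows of 40 columns gave 8.20-fold.

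The log2 ratios moved by more than their counting intervals when the cells were thinned or divided anew, so those intervals understate the error. The ratio of other members between cells rich and poor in RPS29 plus RPL26 was 0.036 at a depth of 1500, 0.079 at 900, 0.081 with another seed, 0.074 in set 2 and 0.072 above 1500 counts. The G2/M ratio was -0.15 at a depth of 1500, -0.16 with another seed, -0.11 in set 1, -0.15 in set 2, -0.080 for a division at the median and -0.10 with the smaller denominator. The G1/S ratio was -0.054 at 900, -0.11 with another seed and -0.092 above 1500 counts.

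Alternatives chosen after seeing the data were the deepest cell, early, middle and late cells divided on their own, and the 10 cells rich in RPL34, RPS24, RPS15A and RPS27A. For RPS29 plus RPL26 the other members were at 0.041 without the deepest cell, 0.047, 0.081 and 0.096 in early, middle and late cells divided on their own (0.092, 0.011 and 0.044 with the division over all cells, the middle interval reaching -0.0094), and 0.076 without the 10 cells. For G2/M early, middle and late cells gave -0.15, -0.17 and -0.16, and leaving out the 10 cells -0.16. For G1/S the ratio was -0.063 without the deepest cell and -0.038, -0.097 and 0.031 in early, middle and late cells, and the cause of the change of sign was not tested. The late to early ratio of RPS29 plus RPL26 was 1.62 without the deepest cell and 1.72 without the 10 cells. The ratio of the other members was 0.12 in set 1 and 0.010 in set 2. By set and block the latter lay between 0.060 and 0.19, except in block 4 of set 2 at -0.15 (-0.18 to -0.12). The late cells of that block and set include the deepest cell, which also enters the value of set 2. Neither value was computed without it.

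For single genes and the position ratios, 379 of 478 alternative values lay within the interval and 94 moved outside it. The other 5 changed sign where the interval of the value above excluded 0. Sign changes of values whose interval crossed 0 were not counted among the 5. All 5 were in the G2/M comparison. RPS29 was at -0.093 with another seed and -0.14 without the 10 cells. In set 2 thinned and divided on its own it was at -0.23, against 0.053 with the division over all cells. In set 1 RPS24 was at 0.53 and RPS15A at 0.056. Leaving out single samples was not run, since the columns name none. No paired analysis was possible because the cells form 1 pooled sample. Genes with few counts, and those with shared transcript ends, limit what the levels can show.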
